A study of Rattus norvegicus with 12 samples.

Results

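The genes described here encode the conjugation enzymes and 2 families of carbonyl-handling enzymes in rat epididymal adipocytes, the fat cells of the visceral depot beside the testis. Members were all genes whose name on the array began with Gst, Sult, Ugt, Aldh or Akr followed by a class letter or number. This rule found 82 genes on 95 probes, of 26541 genes on the array. The members comprised 21 glutathione S-transferase (Gst) genes, 13 sulfotransferase (Sult) genes, 13 UDP-glucuronosyltransferase (Ugt) genes, 17 aldehyde dehydrogenase (Aldh) genes and 18 aldo-keto reductase (Akr) genes. The rule itself used names only and no measured value, but the members were chosen with earlier results of these data known.

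Adipocytes came from male Fisher 344 rats, a laboratory strain. In the chronic unpredictable stress (CUS) group, 6 rats received 2 stressors per day in random order for 35 days, among them swimming, rotation, isolation, food and water deprivation and disturbed light. The 6 control rats were handled during weighing and were not stressed. Each rat gave 1 array, a 1-colour Agilent gene expression array labelled with Cy3, and age at collection was not given in the labels. The labels name the cells as epididymal adipocytes in 1 place and as preadipocytes in the RNA protocol. Of the adipocyte markers Adipoq, Lep, Fabp4, Cidec, Pparg, Lpl and Cd36 all 7 were well above background. The same held for all 7 fibroblast and progenitor markers, so that detection of markers does not separate the 2 labels.

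Glutathione S-transferases attach glutathione to electrophiles such as the aldehydes formed when lipids are oxidised, sulfotransferases add sulfate to phenols, steroids and thyroid hormones, and UDP-glucuronosyltransferases add glucuronic acid. Aldehyde dehydrogenases oxidise aldehydes to acids, and their substrates range from acetaldehyde and fatty aldehydes to retinaldehyde, the precursor of retinoic acid. Aldo-keto reductases reduce aldehydes, sugars and steroid ketones with NADPH. Many genes of these families carry antioxidant or xenobiotic response elements and are known as targets of the transcription factors Nrf2 (gene Nfe2l2) and Ahr.

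Every value below is a log2 signal relative to the 75th percentile of the same array, so that 0 is the signal of the probe at that percentile. Where a gene had several probes, the brightest tested probe stood for it. Genes were tested if the scanner software marked the probe as well above background on 6 or more of the 12 arrays. They were called higher or lower in CUS at a limma p under 0.05 after Benjamini-Hochberg adjustment across every tested probe. Differences are CUS minus control with their standard error (SE), over 6 arrays per group.

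The 75th percentile was 541 to 627 intensity units on the CUS arrays and 229.8 to 399.7 on the control arrays. Each group was hybridised on a slide of its own, and the effects of slide and stress cannot be told apart. Control replicate 3 stood apart from the other controls. It had the lowest 75th percentile of the 12 arrays, 229.8, and the lowest share of probes well above background, 60.4%. Over the 54 tested members its median deviation from each gene's mean was 0.23, against -0.39 to -0.20 on the other 5 control arrays and 0.00 to 0.32 on the CUS arrays. In 19 of the 26 members called higher, control replicate 3 reached the lowest CUS array. The same held for 1 member in control replicate 6 and for 0 members in the other 4 controls. Marker levels moved with the members on this array. The summed linear level of the adipocyte markers was 1464 there, the highest of all arrays, against 954 to 1141 in CUS and 795 as the lowest control. Its summed smooth muscle markers (4.91, controls up to 44.6), endothelial markers (18.7, controls up to 80.9) and mesothelial markers (2.17, controls up to 11.6) were each the lowest among the controls. The part of the marker levels and of this array's dim signal in the results was not tested. Main results are given with and without this array. In whole-cell RNA of this kind fewer cells of a type and less RNA per cell cannot be told apart.

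**Figure D1:**
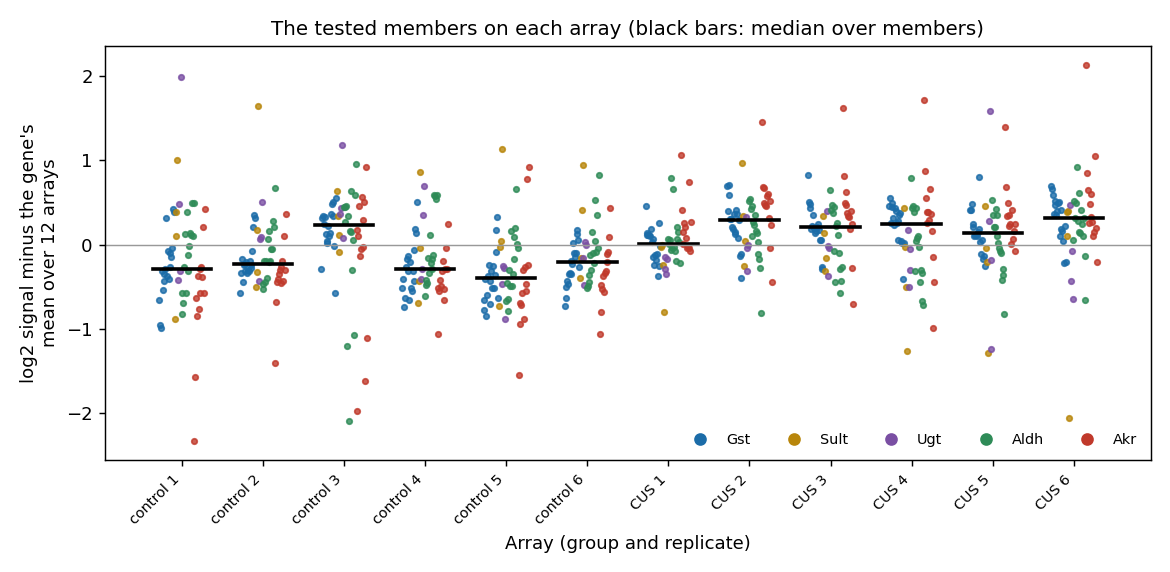
Log2 signal of the 54 tested members on each of the 12 arrays, as the deviation from each gene's mean over all arrays (y axis), with points coloured by family and a black bar at the median. The bar of control replicate 3 lies at 0.23, within the CUS range, and those of the other 5 control arrays lie between -0.39 and -0.20.

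The probe is the DNA that each value rests on. The 60-base probes of 5 of the 7 members whose CUS arrays all lay above every control array are shown here, so that it can be seen which stretch of each transcript was read. They are written 5′ to 3′ as deposited, with no base marked.

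Akr1b1: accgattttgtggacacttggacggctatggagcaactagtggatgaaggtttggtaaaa
Akr1b8: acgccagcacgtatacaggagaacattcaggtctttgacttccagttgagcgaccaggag
Akr7a2: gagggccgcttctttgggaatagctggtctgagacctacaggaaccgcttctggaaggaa
Gstm5: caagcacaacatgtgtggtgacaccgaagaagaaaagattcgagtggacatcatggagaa
Gstp1: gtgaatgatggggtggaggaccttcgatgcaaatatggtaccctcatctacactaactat

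On the rn4 build these probes lay at chr4:61652419-61652766 (minus strand) for Akr1b1, chr4:61724364-61725032 (plus) for Akr1b8, chr5:158104829-158105391 (plus) for Akr7a2, chr2:203457561-203457711 (plus) for Gstm5 and chr1:206628636-206628695 (minus) for Gstp1. The first 4 spanned 348, 669, 563 and 151 genomic bases, more than the 60 bases of a probe, and so crossed at least 1 gap such as an intron. No annotation of this build was used here to place exons. Probes of different members were compared with each other, without gaps, and not with the transcripts of related members. Whether a probe also reads such a transcript was therefore not checked. Of 4452 pairs of probes, the most alike were those of Akr1c12 and Akr1c13, with 40 identical bases in an overlap of 58, and no other pair shared more than 35.

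More members were higher in CUS than were lower, and the excess lay mainly among the aldo-keto reductases and glutathione S-transferases. Of the 82 members, 54 were tested. Of these, 26 (48.1%) were called higher in CUS, where 24.1% of all 17417 tested genes were called higher. Only 5 members (9.26%) were called lower, where 25.9% of all tested genes were. The median difference over the 54 members was 0.43, against -0.03 over all tested genes, and 41 of 54 members had a positive difference. Most differences were small. At 2-fold or more and adjusted p under 0.05, 3 members were higher (3.18% of all tested genes) and 2 were lower (8.8%). In 7 tested members every CUS array lay above every control array, which held for 10.3% of all tested genes, and in 1 tested member every CUS array lay below (11.7%). Without control replicate 3, 34 members were called higher and 8 lower, beside 29.1% and 30.5% of all tested genes, and in 27 members the CUS arrays lay above the remaining controls, beside 19.6% of all tested genes.

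**Figure D2:**
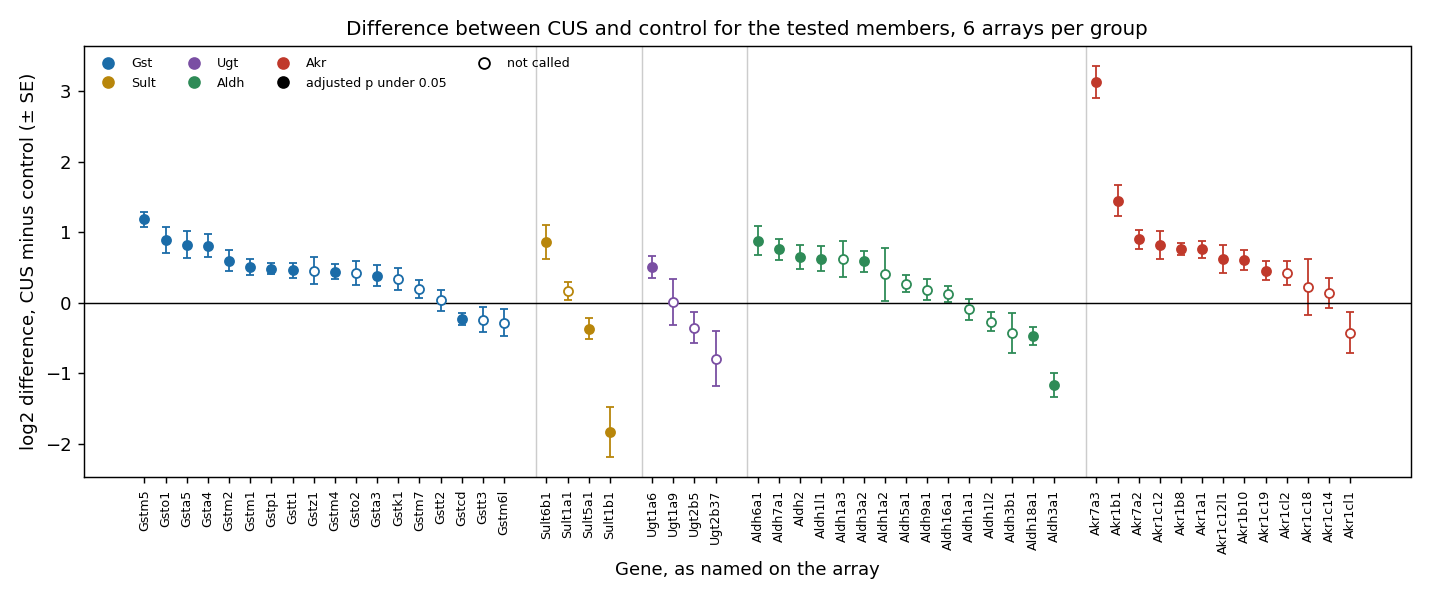
Log2 difference, CUS minus control, with its standard error for each of the 54 tested members (x axis), ordered by size within family and coloured by family. Filled circles passed the adjusted p of 0.05 and open circles did not. Akr7a3 (3.13) and Sult1b1 (-1.84) mark the ends of the range.

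The families differed in their counts, which stand beside 24.1% called higher and 25.9% called lower of all tested genes. The shares called higher among Aldh (33.3%), Sult (25%) and Ugt (25%) lay nearer to that of all genes than those of Akr (69.2%) and Gst (55.6%). Among the aldo-keto reductases 9 of 13 tested genes were called higher and 0 lower, with a median difference of 0.62. Among the glutathione S-transferases 10 of 18 were called higher and 1 lower, with a median of 0.45. The aldehyde dehydrogenases had 5 called higher and 2 lower of 15, with a median of 0.27. Of 4 tested sulfotransferases 1 was called higher and 2 lower (median -0.10), and of 4 tested UDP-glucuronosyltransferases 1 was called higher and 0 lower (median -0.17). The last 2 medians became 0.75 and 0.67 when arrays were scaled on the spike-ins, a scaling under which the median of all genes was 0.82. With the same scaling the medians of Akr, Gst and Aldh were 1.47, 1.29 and 1.11. With normexp, under which the median of all genes was -0.16, the medians were 0.49 for Akr, 0.36 for Gst and 0.05 for Aldh. Those of Sult and Ugt were then -0.21 and -0.47. Normexp called 4 of 18 Gst, 4 of 15 Aldh and 3 of 4 Ugt genes lower, beside 43.9% of all tested genes. It called 2 Sult genes and 1 Akr gene lower. Quantile normalization turned the Ugt median to 0.22. Without control replicate 3 the counts called higher and lower were 11 and 1 for Akr, 14 and 2 for Gst and 7 and 3 for Aldh. These stand beside 29.1% and 30.5% of all tested genes. The difference between families was not tested.

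**Figure D3:**
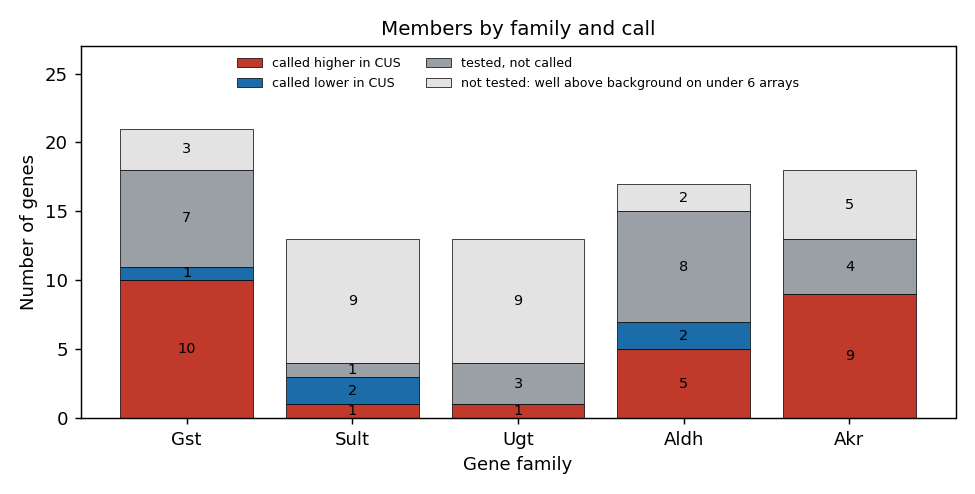
Number of genes (y axis) in each of the 5 families (x axis), split into members called higher in CUS, called lower, tested but not called, and not tested because the probe was well above background on fewer than 6 arrays. The Akr and Gst bars hold 9 and 10 genes called higher, and the Sult and Ugt bars hold 9 untested genes each.

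Akr7a3, an aflatoxin aldehyde reductase first known from rat liver, showed the greatest difference of any member. Its signal was lowest at -3.54, median -3.07 and highest at -2.47 on the CUS arrays, and -6.94, -6.08 and -5.67 on the control arrays. The groups did not overlap, and the probe was well above background on all 6 CUS arrays and on 0 of 6 control arrays. The control signal is therefore only a bound, and the probe passed the filter through the CUS arrays alone. Control signals were raised to the dimmest signal marked well above background on each array. Akr7a3 was then 5.41-fold higher in CUS under the scaling used, and no test was made of that value. The measured means were -3.04 in CUS and -6.17 in controls. Their difference of 3.13 had a limma adjusted p of 2.24e-06, which rests on control values not well above background. With normexp background correction, which compresses dim signals, the difference was 0.36 (adjusted p 0.009). The probe lay on chromosome 5 at 158147285 to 158147343 of rn4, on the same chromosome as Akr7a2.

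Akr7a2, which reduces succinic semialdehyde, was also higher in CUS. CUS arrays read 1.17, 1.52 and 1.67 (lowest, median, highest) and control arrays 0.33, 0.51 and 1.13, without overlap. The difference was 0.90 ± 0.14 (SE), or 1.86-fold, with a limma adjusted p of 0.000264.

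The Akr1b genes, the aldose reductase group, were higher in CUS for each of the 3 tested. Aldose reductase itself, Akr1b1, turns glucose into sorbitol in the first step of the polyol pathway. Akr1b1 read 1.69, 2.03 and 2.15 in CUS and -0.30, 0.54 and 1.45 in controls, where the highest value was that of control replicate 3. The groups did not overlap, and the difference was 1.44 ± 0.22 (2.72-fold, limma adjusted p 0.000304). Sord, the sorbitol dehydrogenase of the second polyol step and not a member, was 0.48 ± 0.11 higher, also with no overlap (limma adjusted p 0.00384). Akr1b8, a rodent relative of aldose reductase, read 1.56 to 1.79 in CUS and 0.73 to 1.17 in controls, with a difference of 0.76 ± 0.09 (1.70-fold, limma adjusted p 4.57e-05). Akr1b10 had a difference of 0.61 ± 0.14 (limma adjusted p 0.0039), but this turned to -0.24 with normexp, a call in the other direction. Akr1b7, known in mice from the vas deferens, was well above background on 1 array only. Control replicate 6 read -3.26, against at most -6.10 on the other controls and -7.45 on the CUS arrays. The epididymal epithelium genes Lcn5 and Adam7 were highest on that same array, at 0.48 and 1.32. The part of epididymal cells was not tested.

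Akr1a1, the aldehyde reductase that acts on glucuronate, read 2.82, 2.99 and 3.20 in CUS and 1.84, 2.30 and 2.56 in controls, with no overlap. It was 0.76 ± 0.12 higher (1.69-fold, limma adjusted p 0.000357). Akr1a1, Akr1b7, Akr1b10, Gstp1 and the Akr1c genes other than Akr1c12, Akr1cl1 and Akr1cl2 fell outside the rule for named genes and were chosen after their values were seen.

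The Akr1c genes, most of which encode hydroxysteroid dehydrogenases, were mixed. Akr1c12 (Akr1c13 in current RefSeq) read 1.49, 1.93 and 2.15 in CUS and 0.64, 1.01 and 1.94 in controls. Only control replicate 3 reached the CUS range, and the difference was 0.81 ± 0.20 (1.76-fold, limma adjusted p 0.00505). Akr1c12l1 (0.62, adjusted p 0.0196) and Akr1c19 (0.45, adjusted p 0.0141) were also called higher. Akr1c12l1 lost its call with normexp (0.08, adjusted p 0.606) and with the methods' test after Benjamini-Hochberg adjustment. The 2 probes of Akr1cl2 (current RefSeq name Akr1e2) gave 0.42 (adjusted p 0.0549) for the brighter and 0.63 (adjusted p 0.0217) for the other, so that the call depended on the probe. The brighter probe was called higher without control replicate 3, at 0.56 (limma adjusted p 0.00148). Akr1cl1 (current name Akr1c15) was the one Akr member with a negative difference, -0.43 ± 0.29 (adjusted p 0.242). Its control arrays read 3.07 to 3.74 apart from control replicate 3 at 1.72, and the CUS arrays reached from 2.12 into that control range. Without control replicate 3 it was called lower, at -0.69 (limma adjusted p 0.00778). Akr1c14 and Akr1c18, which encode 3α- and 20α-hydroxysteroid dehydrogenases, had differences of 0.13 and 0.22 and were not called. Leaving out control replicate 3 gave 0.33 for Akr1c14, called higher (limma adjusted p 0.0366), and -0.08 for Akr1c18, not called.

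**Figure D4:**
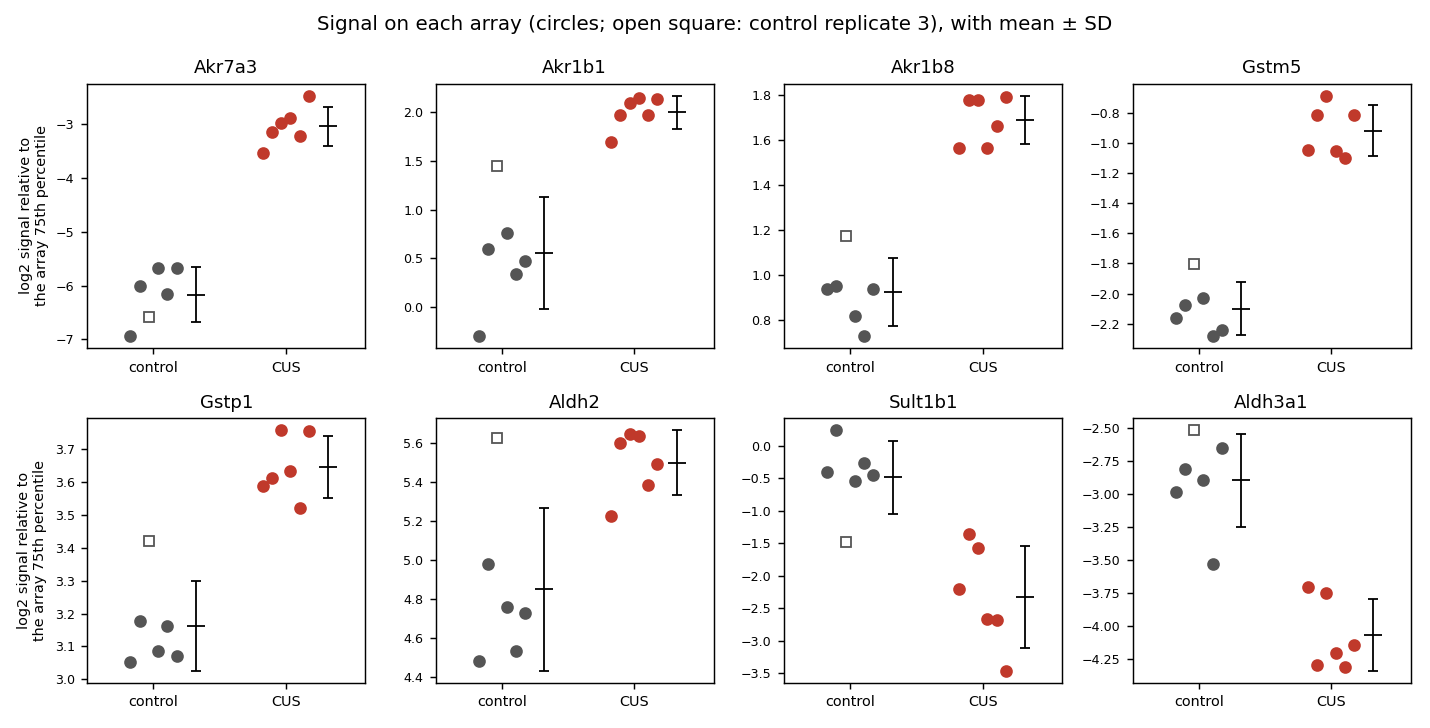
Log2 signal relative to the array 75th percentile (y axis, a separate scale per gene) on each control and CUS array for 8 members, with the mean ± SD of 6 arrays beside them and control replicate 3 as an open square. CUS lies above every control array for Akr7a3, Akr1b1, Akr1b8, Gstm5 and Gstp1, control replicate 3 lies within the CUS range for Aldh2 and Sult1b1, and CUS lies below every control array for Aldh3a1.

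Of the 15 tested aldehyde dehydrogenases 5 were called higher in CUS, namely Aldh6a1, Aldh7a1, Aldh2, Aldh1l1 and Aldh3a2, and Aldh3a1 and Aldh18a1 were called lower. Aldh6a1, the methylmalonate semialdehyde dehydrogenase of valine breakdown, read -1.99, -1.53 and -1.26 in CUS and -2.88, -2.61 and -1.61 in controls, with a difference of 0.88 ± 0.21 (1.84-fold, limma adjusted p 0.00406) that was 0.35 with normexp. Aldh7a1, which acts in lysine breakdown, read 3.79, 4.21 and 4.33 in CUS and 3.21, 3.30 and 4.05 in controls, a difference of 0.75 ± 0.15 (1.68-fold, adjusted p 0.00137). For both genes the 5 other controls lay below all CUS arrays and control replicate 3 lay among them.

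Aldh2, the mitochondrial enzyme that clears acetaldehyde, read 5.23, 5.55 and 5.64 in CUS and 4.48, 4.74 and 5.62 in controls. The overlap came from control replicate 3 alone, and the difference was 0.65 ± 0.17 (1.57-fold, limma adjusted p 0.0085), or 0.80 without that array. Aldh1l1, a 10-formyltetrahydrofolate dehydrogenase, was 0.62 ± 0.18 higher (limma adjusted p 0.0124). Aldh3a2, the fatty aldehyde dehydrogenase, was 0.58 ± 0.15 higher on its brighter probe (adjusted p 0.00618) and 1.02 ± 0.17 on the other, where the groups did not overlap (adjusted p 0.000509).

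Aldh3a1, known for its abundance in the cornea and its induction through Ahr in liver, was the one tested member with every CUS array below every control array. It read -4.31, -4.17 and -3.71 in CUS and -3.53, -2.85 and -2.52 in controls. The difference was -1.17 ± 0.17, a control level 2.25-fold that of CUS (limma adjusted p 0.00021). On spike-in scaling it was -0.32 and did not pass (adjusted p 0.182). Aldh18a1, which makes the proline precursor pyrroline-5-carboxylate, was -0.48 ± 0.13 on its brighter probe (adjusted p 0.00851) and -0.74 ± 0.29 on the other (adjusted p 0.049), and spike-in scaling turned the brighter probe to 0.37.

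The retinaldehyde dehydrogenases were not called. Aldh1a1 had a difference of -0.09 ± 0.15 and Aldh1a2 of 0.40 ± 0.37. Aldh1a3 had 0.62 ± 0.25 (adjusted p 0.056) and was well above background on 6 CUS arrays and 2 control arrays, and normexp gave -0.42 (adjusted p 0.00087). Aldh1a2, Aldh1a3 and Aldh3b1 each read lowest on control replicate 3, at -3.76, -6.56 and -1.72, as did the mesothelial marker Msln at 0.09. Aldh9a1, an enzyme of carnitine synthesis, had 0.18 ± 0.15 (adjusted p 0.329), but was called higher without control replicate 3, at 0.33 (limma adjusted p 0.00466). These genes other than Aldh9a1 were chosen after their values were seen.

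Glutathione S-transferases of several classes were higher in CUS. Gstm5, of the mu class, read -1.10, -0.93 and -0.69 in CUS and -2.28, -2.12 and -1.80 in controls. The groups lay far apart, and the difference of 1.18 ± 0.11 (2.27-fold) had a limma adjusted p of 6.89e-06, and was 0.73 with normexp. Gsto1, of the omega class that reduces dehydroascorbate, read 2.72, 3.04 and 3.24 in CUS and 1.62, 2.06 and 2.90 in controls. Its difference was 0.89 ± 0.18 (1.85-fold, adjusted p 0.0017), and control replicate 3 was the one array that reached the CUS range.

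Gsta4, the alpha-class enzyme with a preference for 4-hydroxynonenal, a product of lipid peroxidation, read 3.20, 3.51 and 3.79 in CUS and 2.24, 2.65 and 3.33 in controls. It was 0.80 ± 0.16 higher (1.75-fold, limma adjusted p 0.00178). Gsta5 (Gsta3 in current RefSeq) was 0.82 ± 0.19 higher (adjusted p 0.00376) and Gstm2 0.60 ± 0.15 higher (adjusted p 0.00532). Gstp1, the pi-class enzyme, read 3.52, 3.62 and 3.76 in CUS and 3.05, 3.12 and 3.42 in controls. This small difference of 0.48 ± 0.08 (1.40-fold, adjusted p 0.000653) came without overlap, since the arrays of each group lay close together.

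Other members of the family moved less or were not called. Gsta3 (Gsta1 in current RefSeq) passed narrowly, at 0.38 ± 0.15 (limma adjusted p 0.0466), and lost its call when any 1 of 10 arrays was left out. Gstz1, the maleylacetoacetate isomerase of tyrosine breakdown, had 0.45 ± 0.19 (adjusted p 0.0603), but was called higher without control replicate 3, at 0.54 (limma adjusted p 0.0217). Gstcd, a protein with a transferase-like C-terminal domain, was the one Gst gene called lower, at -0.23 ± 0.09 (adjusted p 0.0383). It lost that call when any 1 of 8 arrays was left out and turned to 0.61 with spike-in scaling.

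Sulfotransferases were mostly below detection, and the member with the greatest fall was among the few detected. Sult1b1, which sulfates thyroid hormones and phenols, read -3.47, -2.44 and -1.36 in CUS and -1.49, -0.43 and 0.24 in controls. Control replicate 3, at -1.49, was the one control array within the CUS range. The difference was -1.84 ± 0.35, a control level 3.58-fold that of CUS (limma adjusted p 0.00127). The other probe gave -1.83 ± 0.32 with no overlap (adjusted p 0.000727), but both probes overlap on chromosome 14 (22031815 to 22031884) and are not separate evidence. Sult1b1 was the 1 member called lower under spike-in scaling too, at -0.996 (adjusted p 0.0314).

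Sult1a1, the phenol sulfotransferase, had a difference of 0.17 ± 0.13 (limma adjusted p 0.286) over CUS arrays of 5.57 to 5.95 and control arrays of 5.18 to 5.95. Sult6b1 was called higher at 0.86 ± 0.24 (adjusted p 0.0103), but the difference was -0.10 with normexp. Sult5a1 was called lower at -0.37 ± 0.14 (adjusted p 0.0472) and lost the call when any 1 of 9 arrays was left out. The 9 other Sult genes, among them the Sult1c and Sult2a genes, were never well above background.

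Of the UDP-glucuronosyltransferases, Ugt1a6, which conjugates phenols, was called higher. It read 3.94, 4.39 and 4.56 in CUS and 3.62, 3.68 and 4.45 in controls, with control replicate 3 as the highest control. The difference was 0.50 ± 0.15 (1.42-fold, limma adjusted p 0.0164), and the second probe gave 0.87 ± 0.21 (adjusted p 0.00501). Transcripts of the Ugt1a locus share their later exons, so that these probes may also read other Ugt1a transcripts. Ugt2b37 had -0.80 ± 0.39 (adjusted p 0.105), with control arrays from -5.39 to -2.52. The 9 untested Ugt genes, including Ugt2b1, Ugt2b7 and Ugt8, were never well above background. Of all 28 untested members 24 were never well above background, and for these no level is given.

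Members lie in clusters of related genes on rn4, and the detected ones were not evenly spread. The counts below stand beside 24.1% called higher and 25.9% called lower of all tested genes, and no cluster was tested as a set. In the Gstm cluster on chromosome 2, between 203457561 and 203606415, 6 of 8 genes were tested and 4 were called higher. In the Akr1b cluster on chromosome 4, between 61652419 and 61806828, all 3 tested genes of 4 were called higher. The Akr1c cluster on chromosome 17, between 76971296 and 77341436, held 10 genes, 7 tested and 3 called higher. The Ugt2 cluster on chromosome 14, between 22001919 and 22743283, held 11 genes, Sult1d1 and Sult1b1 included, of which 3 were tested, 0 called higher and Sult1b1 called lower. The 3 Sult1c genes on chromosome 9, between 531902 and 1032253, were not tested.

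Promoters were read for response elements because many of these genes are known targets of Nrf2 and Ahr. RefSeq promoters of build GRCr8, 250 bases before to 50 after the start, were matched by symbol for 67 of the 82 members. The antioxidant response element core TGACNNNGC, searched on both strands, was found in 12 of 67 member promoters (17.9%) and in 12.1% of all 33469 promoters. It was present in 11 of the 46 promoters of tested members. Of the 23 promoters of members called higher it was in 4, a smaller share, those of Gstm5, Gstp1, Gsta5 and Gsta3. Gstcd, called lower, also held it, as did Aldh16a1, Gstm7, Gstz1, Aldh1a2, Aldh9a1 and Akr1cl1, which were not called. The xenobiotic response element core TNGCGTG was found in 4 of 67 (5.97%, against 4.89% of all). These were Akr7a2 and Aldh3a2, called higher, Gstcd, called lower, and Gsta2, which was not tested. The palindromic glucocorticoid response element, with no mismatch allowed, was found in 0 of 67 (0.0149% of all). A match here is a string of letters in a window and no evidence of binding. The 250 bases upstream of Gstm5 (chr2:198219519-198219768, plus strand) and Gstp1 (chr1:210769706-210769955, minus strand) are shown 5′ to 3′ because they hold the match and belong to genes that rose without overlap. The matches to TGACNNNGC are in capitals.

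Gstm5: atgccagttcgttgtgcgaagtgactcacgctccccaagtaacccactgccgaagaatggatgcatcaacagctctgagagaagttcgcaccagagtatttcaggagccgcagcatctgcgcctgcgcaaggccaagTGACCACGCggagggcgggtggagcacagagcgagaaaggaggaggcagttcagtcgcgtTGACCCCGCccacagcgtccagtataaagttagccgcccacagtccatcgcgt
Gstp1: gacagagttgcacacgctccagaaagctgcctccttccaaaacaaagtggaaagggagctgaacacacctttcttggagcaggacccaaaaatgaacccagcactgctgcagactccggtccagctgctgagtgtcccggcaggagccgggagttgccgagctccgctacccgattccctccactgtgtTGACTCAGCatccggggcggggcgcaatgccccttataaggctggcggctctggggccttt

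Genes that work beside the members were read from lists, chosen with earlier results of these data known, and are given by counts. Of all tested genes 24.1% were called higher and 25.9% lower, several list counts lay near these shares, and no list was tested as a set. Of 9 tested other carbonyl and quinone reductases 7 were called higher and 0 lower, with a median of 0.55. They included Cbr4 (1.38 ± 0.29, and 0.34 with normexp), Cbr3 (0.79 ± 0.16), a carbonyl reductase, and Nqo1 (0.71 ± 0.14), the quinone reductase often read as an Nrf2 target, which did not pass with normexp (0.21, adjusted p 0.0589). Of 6 glutathione transferases outside the name rule 4 were called higher and 0 lower (median 0.71), with Mgst1, the microsomal enzyme, at 1.15 ± 0.22, and Hpgds at 1.96 ± 0.33 and Ltc4s at 0.88 ± 0.16. Hpgds was well above background on 6 CUS and 4 control arrays, and normexp gave 0.09, which was not called, and 0.31 for Ltc4s. Hpgds and Ltc4s make prostaglandin D2 and leukotriene C4 and are known from mast cells, whose markers were called higher in 6 of 7 genes (summed level 1.57 to 4.37 in CUS, 0.192 to 0.351 in controls). Their part was not tested.

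Glutathione synthesis and breakdown was mixed, with 3 called higher and 1 lower of 9 tested (median -0.06). Gss, the glutathione synthetase, was 0.77 ± 0.14 higher and Chac1, which degrades glutathione, was -0.85 ± 0.18 with no overlap. Chac1 lay at 0.00 with spike-in scaling. Slc7a11, the cystine importer, was called at 0.57 ± 0.22 (limma adjusted p 0.0427), was well above background on 1 control array only, and gave -0.37 with normexp. Of the genes that supply sulfate and UDP-glucuronate 0 were called higher and 1 lower of 9 (median -0.04). The one called was the transporter Slc35d1 at -0.87 ± 0.18, which was -0.03 with spike-in scaling. Some that were not called had differences as large as those of called members, such as Ugp2 at 0.51 ± 0.20 (limma adjusted p 0.0513) and Papss1 at -0.32 ± 0.14 (0.0753). Among other conjugation and hydrolysis enzymes 4 of 9 were called higher and 0 lower (median 0.59), led by the epoxide hydrolases Ephx1 (1.16 ± 0.12) and Ephx2 (1.08 ± 0.19), each without overlap. Ephx2 was 0.66 with normexp. Of 4 enzymes that remove conjugates 1 was called higher, the steroid sulfatase Sts (0.46 ± 0.11).

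Genes of alcohol and retinol metabolism, which provide and respond to the substrates of the aldehyde dehydrogenases, split, with 5 called higher and 7 lower of 21 tested (median -0.19). Among those called lower were Adh7 (-2.42 ± 0.52), the retinoic acid hydroxylase Cyp26a1 (-1.93 ± 0.30) and Crabp2 (-1.70 ± 0.27), a cellular retinoic acid binding protein. Adh7 was well above background on 1 CUS and 5 control arrays, and Cyp26a1 on 2 CUS and 6 control arrays, so that the CUS values of both were mostly at background and the size of the difference is uncertain (-0.996 and -0.948 with normexp). All 3 kept their direction and their call under spike-in scaling and normexp. The retinal reductase Dhrs3 was 0.70 ± 0.12 higher and Rdh10, which makes retinaldehyde, 0.65 ± 0.13 higher, both without overlap, but Rdh10 lost its call with normexp (-0.05, adjusted p 0.635).

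Among the regulators of xenobiotic genes 4 were called higher and 1 lower of 9 tested (median 0.17). Nfe2l2, which encodes Nrf2, was 0.52 ± 0.11 higher (limma adjusted p 0.00215). Its inhibitor Keap1 was 0.56 ± 0.10 higher with no overlap (adjusted p 0.000868), and the small Maf partner Mafk 0.76 ± 0.15 higher (adjusted p 0.00158). With normexp these were 0.30 for Keap1 and 0.34 for Mafk, both still called. Nr1i2, the pregnane X receptor gene, was -0.75 ± 0.21 (adjusted p 0.0119) and lay at 0.10 with spike-in scaling. Ahr had -0.49 ± 0.21 (adjusted p 0.0679) and Arnt was never well above background.

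Markers of other cell types are given because they moved between the groups as well, beside 24.1% called higher and 25.9% called lower of all tested genes. Red blood cell markers were called higher in 6 of 6 genes (summed level 2018 to 2810 in CUS, 52.6 to 151 in controls), mesothelial markers in 4 of 6 (8.60 to 14.0 against 2.17 to 11.6) and macrophage markers in 2 of 6 (13.3 to 32.3 against 5.32 to 17.5). Smooth muscle markers were called lower in 5 of 6 genes (4.58 to 12.2 against 4.91 to 44.6), endothelial markers in 4 of 8 (19.6 to 39.3 against 18.7 to 80.9) and fibroblast markers in 2 of 7 with 1 higher. Adipocyte markers were called higher in 3 of 7 and lower in 1. Of the hepatocyte markers only Alb was tested (0.79, called higher), and Cps1 and Fgb were never well above background. Of 3 tested epididymal epithelium markers Adam7 was called lower. The part of these cells in the members' differences was not tested.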

How the data were processed

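Epididymal adipocyte RNA from 6 CUS and 6 control rats was hybridised to 1-colour arrays, 1 per rat. The authors deposited scanner output made with Agilent Feature Extraction 10.7.3.1, whose processed intensity is background-subtracted per the file headers, and a table of intensity values that was quantile normalized. The methods name an exon array, whereas the files are those of a gene expression array.

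From 62976 spots per array, 58717 were not controls. Spots flagged as outliers were left out, and the processed intensities of the remaining spots of a probe were averaged. Each value is the log2 of that mean minus the log2 of the array's 75th percentile. The 19727 probes (17417 genes) that the scanner software marked as well above background on 6 or more arrays were fitted with lmFit and eBayes in limma 3.58.1 (R 4.3.3), and p-values were adjusted over all of them. The brightest tested probe stood for a gene. The number of arrays limits the precision, and p-values measure only the spread between these arrays.

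In each family, values were given for up to 5 members called higher and 5 called lower by size, the 2 brightest in controls, members whose probes were called in opposite directions, and members detected in 1 group only. From each list up to 3 called genes by size were named, and genes that explain a member. The members and the lists were chosen with earlier results of these data known. Alternatives were the deposited table, quantile and spike-in scaling, normexp background correction, other filters and probe rules, a variance trend, a replicate block, the methods' unpaired test and leaving out each array. The fit was tested on simulated data. Current gene names and promoters came from RefSeq GRCr8, where 81 of 95 member probes matched by accession.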

Additional observations from a re-analysis of the deposited data

Results flagged for a closer look

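In 21 of 108 groups of 6 arrays (54 tested members in both groups), the highest or lowest array lay so far from the rest that its gap, as a share of the group's range, passed Dixon's critical value for 6 samples. Chance passes about 1 in 20 groups, and the members of 1 array are not independent. Control replicate 3 was that array in 17 of the 21.

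Control replicate 3 was the highest control for Aldh7a1 (gap 0.8626 of the range), Aldh9a1 (0.7727), Aldh6a1 (0.7201), Aldh3a2 (0.7052), Akr7a2 (0.6848), Sult6b1 (0.6814), Akr1c12 (0.6635), Gstp1 (0.6586), Gstm4 (0.6328), Gstk1 (0.6287) and Ugt1a6 (0.6267). It was the lowest control for Aldh1a2 (0.8714), Aldh3b1 (0.7779), Aldh1a3 (0.6812), Akr1cl1 (0.6676), Gstt3 (0.6397) and Akr1c18 (0.6383). In CUS, replicate 1 was lowest for Aldh7a1 (0.64) and Aldh3a2 (0.6346), replicate 5 was highest for Ugt1a9 (0.767) and replicate 6 was highest for Sult5a1 (0.6656).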

How the results depend on the processing

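The count of 26 members called higher became 45 with scaling on the spike-ins and 3 at the methods' thresholds (2-fold, unadjusted p), and the count of 5 called lower became 1 and 2 under the same settings. With the spike-ins 65.4% of all tested genes were called higher and 2.46% lower. The share of all genes at the methods' thresholds is not given here. The count called lower was 3 in the deposited table, beside 20.4% of all tested genes, and 14 with normexp, beside 43.9%. With no filter on dim probes it was 28 of all 82 members (34.1%, beside 41.9% of all 26541 genes). Leaving out 1 array gave 25 to 34 called higher and 3 to 8 called lower, with 34 and 8 both from leaving out control replicate 3, and 3 from leaving out CUS replicate 1, 2 or 5 or control replicate 2 or 6. Over all tested genes the shares in these fits ran from 21% to 29.1% higher and from 22.5% to 30.5% lower. Of the 31 calls, 27 kept direction and significance with the spike-ins, 28 with normexp, 28 in the deposited table and 31 without control replicate 3. Spike-in scaling called 11385 of all genes higher and 428 lower and normexp 3989 and 7652, beside 4201 and 4514 in the scaling used, and quantile normalization 4699 and 3566.

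Differences turned sign with normexp for Akr1b10 (-0.24), Sult6b1 (-0.095), Aldh1a3 (-0.42), Gsto2 (-0.29), Ugt1a9 (-0.43), Aldh5a1 (-0.14) and Akr1c18 (-0.13). With the spike-ins they turned for Akr1cl1 (0.42), Aldh18a1 (0.37), Gstcd (0.61), Sult5a1 (0.48), Ugt2b37 (0.049), Aldh1a1 (0.75), Aldh1l2 (0.58), Aldh3b1 (0.41), Gstm6l (0.56), Gstt3 (0.60) and Ugt2b5 (0.49). The cause was not tested. With the spike-ins the genes called higher and lower became 7 and 0 for glutathione synthesis and breakdown, 7 and 0 for co-substrate supply and 12 and 3 for alcohol and retinol metabolism, and with normexp 1 and 4, 1 and 3, and 3 and 9. Arrays were treated as unpaired. The correlations of same-numbered arrays ran from -0.186 to 0.431, the highest for replicate 3, and 2 of 6 had their own number as best partner. These values have no reference to be set against and cannot show whether the replicate numbers pair the arrays. A replicate block gave 29 members called higher and 5 lower, beside 24.7% and 27.7% of all tested genes, and lost 1 call, that of Gstcd. Dim probes limit the reading, since 28 of 82 members were too dim to be tested.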
